A study of Mus musculus with 8 samples.

Results

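The genes described here encode the enzymes that build cholesterol and fatty acids, together with the sterol-sensing proteins that control them. They are 32 genes chosen by symbol and by their known role, and they were read through the array probe sets that the platform annotation gives to a single gene. Of the 32 genes, 31 had such a probe set, Acat2 being the exception, and 30 passed the filter on low signal, out of 13356 genes tested. Scd1 was the member that did not pass. Its probe set lay below the filter level on every array, with a mean log2 signal of 2.86 in Zeb2hi CDPs, 3.02 in Zeb2low CDPs and 3.11 in pre-CD8 DCs.

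RNA came from 3 populations of dendritic cell (DC) progenitors sorted by flow cytometry from mouse bone marrow. All 3 populations carried the same genotype, heterozygous for a reporter in which Zeb2 is fused to GFP, so that 1 allele carried the fusion. Progenitors common to the DC lineages (CDPs) were split into Zeb2hi and Zeb2low cells, each measured on 3 arrays. Pre-CD8 DCs, a later stage committed to the cDC1 type of DC, had 2 arrays. The labels give no age, no sort markers and no number of mice, nor whether arrays of a group came from separate mice, so the p-values measure the spread between these arrays, which may be technical. The RNA was amplified as cDNA before hybridization.

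As background, cells make cholesterol from acetyl-CoA through mevalonate, farnesyl diphosphate, squalene and lanosterol. Fatty acids are built from the same acetyl-CoA pool and are then elongated and desaturated. Transcription of both routes is driven by SREBP factors, the products of Srebf1 and Srebf2, which are held in the endoplasmic reticulum by SCAP and the INSIG proteins while sterols are plentiful and are released to the nucleus when sterols are scarce. Proliferating cells draw on both routes for new membrane.

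The 250 bases before the transcription start are shown for 4 members whose signal differed between the groups, Hmgcs1 and Srebf2 among the higher ones and Insig1 and Ebp among the lower ones, because SREBP acts at promoters of this pathway together with the CCAAT-binding factor NF-Y. The sequences are from RefSeq (GRCm38.p6) and run 5′ to 3′ with the gene. Capitals mark every match, on either strand, to a sterol response element (TCACNCCAC), a CCAAT box (CCAAT) or an E-box (CACGTG), motifs that do not overlap one another in these windows. The windows are chr13:119690101-119690350 on the plus strand for Hmgcs1, chr15:82147019-82147268 on the plus strand for Srebf2, chr5:28071162-28071411 on the plus strand for Insig1 and chrX:8193513-8193762 on the minus strand for Ebp.
Hmgcs1: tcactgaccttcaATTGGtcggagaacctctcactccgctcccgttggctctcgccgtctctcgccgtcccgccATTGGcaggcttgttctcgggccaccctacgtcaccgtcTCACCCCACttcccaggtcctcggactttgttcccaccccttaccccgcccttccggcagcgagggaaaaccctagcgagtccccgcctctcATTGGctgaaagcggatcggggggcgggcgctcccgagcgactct
Srebf2: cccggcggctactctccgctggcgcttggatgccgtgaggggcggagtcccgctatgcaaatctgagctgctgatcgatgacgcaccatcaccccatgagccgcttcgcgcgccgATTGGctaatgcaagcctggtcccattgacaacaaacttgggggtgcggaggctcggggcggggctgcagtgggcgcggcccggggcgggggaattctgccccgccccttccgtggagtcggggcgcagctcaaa
Insig1: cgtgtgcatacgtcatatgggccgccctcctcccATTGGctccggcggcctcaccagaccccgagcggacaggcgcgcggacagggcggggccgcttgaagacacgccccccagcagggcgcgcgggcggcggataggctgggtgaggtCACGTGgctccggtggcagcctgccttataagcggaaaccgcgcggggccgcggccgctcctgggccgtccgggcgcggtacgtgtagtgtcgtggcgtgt
Ebp: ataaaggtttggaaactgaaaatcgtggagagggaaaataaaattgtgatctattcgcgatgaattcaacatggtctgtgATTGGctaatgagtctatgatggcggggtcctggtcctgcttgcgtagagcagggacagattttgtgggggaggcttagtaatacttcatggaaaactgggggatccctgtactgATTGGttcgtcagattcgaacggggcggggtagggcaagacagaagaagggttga

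A promoter window was at hand for 25 of the 32 members, matched by symbol and gene identifier. A CCAAT box stood in the windows of 19 of these 25 members (76%), against 37.5% of the 27025 genes with a window. All 9 squalene and sterol enzymes with a window had a CCAAT box, as had 5 of 6 mevalonate enzymes and 4 of 5 genes of the SREBP system. Among the 5 fatty acid genes with a window it was found for Fasn alone. The TCACNCCAC element was found only in the Hmgcs1 window, 137 bases before the start, and in 1.22% of all genes with a window. The E-box was found for 5 of 25 members (Hsd17b7, Sc5d, Dhcr7, Insig1 and Scap) and for 6.86% of all genes. These matches are descriptions of the letters and were not tested as sites.

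Array medians across the series were 4.91 to 5.14 on the log2 scale, and the level that the filter used lay between 4.31 and 4.62. Zeb2, the gene behind the sort, had a mean log2 signal of 9.27 in Zeb2hi CDPs, 7.68 in Zeb2low CDPs and 6.73 in pre-CD8 DCs. Of 6 common DC progenitor genes, 0 passed between Zeb2low and Zeb2hi CDPs (3 at an unadjusted p under 0.05) and 4 passed between pre-CD8 DCs and Zeb2hi CDPs. In pre-CD8 DCs Cd34 was 12.1-fold and Csf1r 3.37-fold lower, Kit 2.03-fold and Csf2ra 2.43-fold higher, and Flt3 and Il3ra did not pass. Moreover, 10 of 12 pre-cDC1 and cDC1 genes were higher in pre-CD8 DCs than in Zeb2hi CDPs, beside 6.51% of all genes. In Zeb2low CDPs 8 of the 12 were already higher than in Zeb2hi CDPs, beside 4.5% of all genes. Between pre-CD8 DCs and Zeb2low CDPs 1 of the 12 passed, Tlr3, beside 0.554% of all genes. All 12 mature neutrophil genes passed the filter, which asks for signal on at least 2 arrays. S100a8 and S100a9 read 11.8 or more on every array. On Zeb2hi array 3, however, Ly6g (4.19) and Mmp9 (4.22) lay below the filter level. The summed linear signal of the 12 genes was 11168 to 21403 in Zeb2hi CDPs, 23569 to 49904 in Zeb2low CDPs and 30390 to 59405 in pre-CD8 DCs. Of the other marker lists, the summed T, NK and innate lymphoid signal was 169 to 177 in Zeb2hi CDPs, 412 to 459 in Zeb2low CDPs and 343 to 353 in pre-CD8 DCs. Cd3g, Ncr1, Klrb1c, Gata3 and Rora were below the filter level. Of the genes of that list past the filter, Thy1 read highest, with mean log2 signals of 5.67, 7.89 and 7.51 in that order of groups. Il7r had 4.93, 6.02 and 5.01, and Cd3e had 5.29, 5.88 and 5.88. The mast cell, basophil and eosinophil sum was 247 to 334, 270 to 1132 and 379 to 1232, with Ms4a2 below the filter level. The erythroid and megakaryocyte sum was 117 to 124, 150 to 166 and 142 to 223, with Gata1 and Klf1 below the filter level. The B cell sum was 460 to 522, 313 to 685 and 261 to 292, with Ms4a1 and Ebf1 below that level. The monocyte and macrophage sum was 3545 to 5019, 3169 to 4057 and 2896 to 3729, and within that list Itgam was 4.96-fold higher and F13a1 5.55-fold lower in Zeb2low than in Zeb2hi CDPs. The summed signal of 18 mitosis genes was 12060 to 14256, 10733 to 12583 and 10577 to 13497 in the same order of groups. Of these 18, 5 passed as lower (27.8%, beside 10.3% of all genes) and 0 as higher in Zeb2low than in Zeb2hi CDPs. The 5 were Cdk1, Ccnb2, Aurka, Aurkb and Birc5. In pre-CD8 DCs 2 were lower than in Zeb2hi CDPs (11.1%, beside 11.1% of all genes) and 0 higher. Of the 2 pre-CD8 DC arrays, array 1 had the higher sum for the neutrophil list (59405 against 30390). It also had the higher sum for every other cell list named here, with 1232 against 379 for mast cells, basophils and eosinophils. Array 2 had the higher mitosis sum. The part of these other cells and of proliferation in the results that follow was not tested. In sorted populations measured in bulk, fewer cells of a type and less RNA per cell cannot be told apart.

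**Figure D1:**
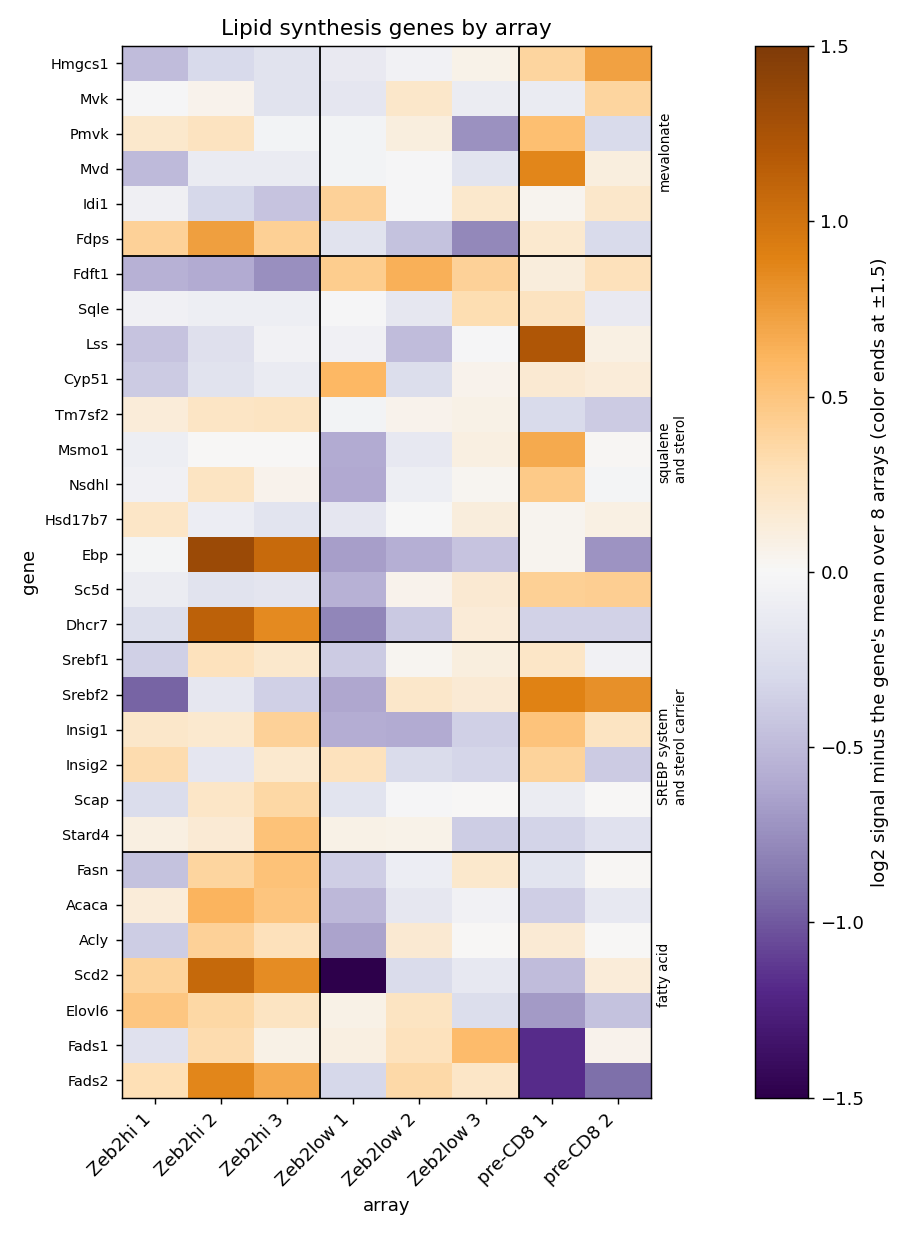
Log2 signal of the 30 tested members (rows, grouped by role) on the 8 arrays (columns), shown as the difference from each gene's mean over all arrays. Srebf2 and Hmgcs1 are highest in the pre-CD8 columns, Fads2 is lowest there, and Ebp, Dhcr7 and Scd2 are high on Zeb2hi arrays 2 and 3; the lowest value, Scd2 on Zeb2low array 1, lies past the end of the color scale.

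The members that passed went both ways in pre-CD8 DCs against Zeb2hi CDPs. Between Zeb2low and Zeb2hi CDPs all but Fdft1 were lower, and Fdft1 was higher on 1 of its probe sets only. With the mean of the probe sets of each gene, 0 members were called higher and 4 lower there. The set as a whole was not tested. Between Zeb2low and Zeb2hi CDPs, 6 of 30 members passed the test (limma, with a Benjamini-Hochberg adjusted p, given below as the FDR, under 0.05), with Fdft1 higher and Fdps, Ebp, Insig1, Acaca and Scd2 lower. Over all genes 14.8% passed in that comparison, 4.5% higher and 10.3% lower. In pre-CD8 DCs against Zeb2hi CDPs, 6 of 30 passed again, with Hmgcs1, Fdft1 and Srebf2 higher and Tm7sf2, Elovl6 and Fads2 lower, against a background of 17.6% (6.51% higher and 11.1% lower). Between pre-CD8 DCs and Zeb2low CDPs 0 of 30 passed, where 0.554% of all genes did. The shares of members called are therefore near those of all genes, and the description below is by member. At an unadjusted p under 0.05 (limma), 9 of 30 members (30%) differed between Zeb2low and Zeb2hi CDPs, beside 32.8% of all genes. In pre-CD8 DCs against Zeb2hi CDPs it was 15 of 30 (50%), beside 31.8%. In all, 11 members passed in at least 1 comparison, Fdft1 alone passed in both comparisons with Zeb2hi CDPs, and 19 passed in none. The comparisons share arrays, so their calls are not independent.

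The median log2 difference of the 30 members between Zeb2low and Zeb2hi CDPs was -0.18, with 12 above 0 and 18 below, beside a median of 0.03 over all genes. Centring the arrays on their medians moved the median of all genes to -0.14, and the share of higher calls among all calls went from 30.4% to 14.2%, or to 40.9% after quantile normalization. The 6 members were called in the same directions after centring, and Fdps, Fdft1, Ebp and Insig1 after quantile normalization. For pre-CD8 DCs against Zeb2hi CDPs the median was 0.02 for members and -0.02 for all genes. For pre-CD8 DCs against Zeb2low CDPs it was 0.13 for members, with 21 above 0 and 9 below, and -0.03 for all genes. The arrays of the groups did not overlap for 11 of 30 members between Zeb2low and Zeb2hi CDPs (41.8% of all genes), 3 higher (20.2%) and 8 lower (21.5%). They did not overlap for 11 of 30 between pre-CD8 DCs and Zeb2low CDPs (27.7%), 6 higher (12.4%) and 5 lower (15.4%), nor for 17 of 30 between pre-CD8 DCs and Zeb2hi CDPs (48.4%), 9 higher (21.4%) and 8 lower (27.1%).

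The mevalonate enzymes held a member that was higher in pre-CD8 DCs and a member that was lower in Zeb2low CDPs. Hmgcs1 encodes the cytosolic HMG-CoA synthase that opens the mevalonate route. Its log2 signal was 6.42, 6.61 and 6.70 on Zeb2hi arrays 1 to 3, 6.77, 6.85 and 6.97 on Zeb2low arrays 1 to 3, and 7.29 and 7.63 on the pre-CD8 DC arrays. No array of a group overlapped those of another group, and the means ran from Zeb2hi (6.58 ± 0.14, SD, n = 3) through Zeb2low (6.86 ± 0.10, SD, n = 3) to pre-CD8 DCs (7.46 ± 0.24, SD, n = 2). Hmgcs1 was 1.84-fold higher in pre-CD8 DCs than in Zeb2hi CDPs (log2 difference 0.88 ± 0.17, SE, FDR 0.00975), and this call held in all 19 alternatives run for it. The smaller differences between Zeb2low and Zeb2hi CDPs (0.29 ± 0.15, FDR 0.221) and between pre-CD8 DCs and Zeb2low CDPs (0.59 ± 0.17, FDR 0.194) did not pass.

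Fdps encodes farnesyl diphosphate synthase, whose product feeds sterols, protein prenylation and ubiquinone. Its log2 signal was 8.04, 8.37 and 8.05 on the Zeb2hi arrays, 7.43, 7.19 and 6.85 on the Zeb2low arrays and 7.82 and 7.35 on the pre-CD8 DC arrays. All Zeb2low arrays were below all Zeb2hi arrays, and the pre-CD8 DC arrays lay between the lowest Zeb2hi array and the middle Zeb2low array. Fdps was 1.99-fold lower in Zeb2low than in Zeb2hi CDPs (-0.996 ± 0.20, FDR 0.0157). The difference of pre-CD8 DCs from Zeb2hi CDPs did not pass (-0.57 ± 0.23, FDR 0.120). The Zeb2low call was lost without Zeb2hi array 2 (FDR 0.0730), Zeb2hi array 3 (FDR 0.0548) or Zeb2low array 3 (FDR 0.0513).

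The other mevalonate enzymes passed in no comparison. Idi1, the isomerase that makes dimethylallyl diphosphate, had log2 signals of 6.70, 6.47 and 6.34 in Zeb2hi CDPs and 7.19, 6.75 and 6.97 in Zeb2low CDPs, groups that did not overlap (0.47 ± 0.17, FDR 0.0912). In the fit blocked on replicate number over the 6 CDP arrays Idi1 passed (FDR 0.0367). That fit rests on a pairing that no label states, and 30.5% of all genes passed in it, beside 14.8% in the main fit. The same share stands beside each later mention of that fit. Its other probe set differed by 0.32 ± 0.15 (FDR 0.176). Mvd, the decarboxylase before Idi1, had 5.49, 5.87 and 5.86 in Zeb2hi CDPs, 5.95, 5.97 and 5.79 in Zeb2low CDPs and 6.87 and 6.10 in pre-CD8 DCs. Pre-CD8 DC array 1 stood well above every other array for Mvd. The difference from Zeb2hi CDPs did not pass (0.74 ± 0.24, FDR 0.0616), and it was 1.12 with array 1 as the only pre-CD8 DC array. The kinase genes Mvk (means of 5.52, 5.55 and 5.71 in the Zeb2hi, Zeb2low and pre-CD8 groups) and Pmvk (6.29, 5.94 and 6.29) had overlapping arrays in all comparisons. The 95% interval of the Mvk difference between Zeb2low and Zeb2hi CDPs ran from -0.38 to 0.44, and that of Pmvk from -0.98 to 0.27.

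In the squalene and sterol branch, 1 enzyme was called higher and 1 lower in Zeb2low than in Zeb2hi CDPs, and 1 each way in pre-CD8 DCs. The higher call was that of Fdft1 in both comparisons, and it held on 1 of its probe sets only. Fdft1 encodes squalene synthase, the first step committed to sterols. On the probe set with the higher signal it read 6.19, 6.16 and 6.01 on the Zeb2hi arrays, 7.19, 7.39 and 7.16 on the Zeb2low arrays and 6.88 and 7.03 on the pre-CD8 DC arrays. The 3 groups did not overlap, with Zeb2low CDPs on top. On that probe set Fdft1 was 2.19-fold higher in Zeb2low CDPs (1.13 ± 0.14, FDR 0.00281) and 1.79-fold higher in pre-CD8 DCs (0.84 ± 0.15, FDR 0.00804) than in Zeb2hi CDPs.

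The other Fdft1 probe set did not show these differences, although the annotation lists the same transcripts for both. It read 6.04, 6.14 and 5.88 on the Zeb2hi arrays, 5.61, 5.77 and 5.57 on the Zeb2low arrays and 6.60 and 5.75 on the pre-CD8 DC arrays. All of its Zeb2low arrays were below its Zeb2hi arrays (-0.37 ± 0.21, FDR 0.254 among 14639 probe sets), and pre-CD8 DCs differed from Zeb2hi CDPs by 0.16 ± 0.24 (FDR 0.693). With the mean of both probe sets Fdft1 passed neither in Zeb2low CDPs (0.38, FDR 0.119) nor in pre-CD8 DCs (0.50, FDR 0.0750), so the direction of Fdft1 depends on the probe set.

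Ebp encodes the sterol isomerase that shifts a double bond late in the pathway. It read 6.56, 7.93 and 7.65 on the Zeb2hi arrays, 5.94, 6.03 and 6.16 on the Zeb2low arrays and 6.64 and 5.88 on the pre-CD8 DC arrays. Zeb2hi array 1 lay more than 1 log2 unit below the other Zeb2hi arrays, yet above all Zeb2low arrays. Ebp was 2.54-fold lower in Zeb2low than in Zeb2hi CDPs (-1.34 ± 0.34, FDR 0.0324). Its difference in pre-CD8 DCs did not pass (-1.13 ± 0.38, FDR 0.0763) but did without Zeb2hi array 1 (-1.54, FDR 0.00984). The first call, in Zeb2low CDPs, held in the fit blocked on replicate number over the CDP arrays alone. The first call was lost without Zeb2hi array 2 (FDR 0.122) or 3 (FDR 0.120), without Zeb2low array 1 (FDR 0.0745), 2 (FDR 0.0814) or 3 (FDR 0.0750), without Zeb2low array 1 and pre-CD8 DC array 1 together (FDR 0.0546), and in the fit blocked on replicate number over all arrays (FDR 0.0645).

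Dhcr7, which reduces the last intermediate to cholesterol, had the same split within Zeb2hi CDPs. It read 5.62, 7.01 and 6.72 on the Zeb2hi arrays, 5.09, 5.47 and 6.03 on the Zeb2low arrays and 5.53 on both pre-CD8 DC arrays. Zeb2hi array 1 lay within the range of the Zeb2low arrays. The difference did not pass between Zeb2low and Zeb2hi CDPs (-0.92 ± 0.36, FDR 0.116) or between pre-CD8 DCs and Zeb2hi CDPs (-0.92 ± 0.40, FDR 0.154). Without Zeb2hi array 1 both passed (-1.34, FDR 0.0195, and -1.33, FDR 0.0228), and the first passed in the fit blocked on replicate number over the CDP arrays (FDR 0.0174).

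Tm7sf2 encodes a sterol reductase that acts after the lanosterol demethylase. Its log2 signal was 6.21, 6.30 and 6.31 in Zeb2hi CDPs, 6.04, 6.13 and 6.15 in Zeb2low CDPs and 5.79 and 5.69 in pre-CD8 DCs. The groups did not overlap and ran in the opposite order to those of Hmgcs1. Tm7sf2 was 1.45-fold lower in pre-CD8 DCs than in Zeb2hi CDPs (-0.54 ± 0.14, FDR 0.0300), and of the 8 fits without 1 array it passed in 2, those without Zeb2hi array 1 or Zeb2low array 1. Among the others the FDR ran from 0.0504 without Zeb2low array 3 through 0.0511 without Zeb2low array 2, 0.0756 without pre-CD8 DC array 1, 0.0991 without Zeb2hi array 2 and 0.100 without Zeb2hi array 3 to 0.103 without pre-CD8 DC array 2, and it was 0.0876 in the fit blocked on replicate number over all arrays.

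The remaining sterol enzymes passed in no comparison. Lss, which closes squalene epoxide to lanosterol, was near the filter level in CDPs, with 4.09, 4.31 and 4.48 on the Zeb2hi arrays and 4.47, 4.05 and 4.52 on the Zeb2low arrays. In pre-CD8 DCs it read 5.75 and 4.63, both above every CDP array (0.89 ± 0.31 against Zeb2hi CDPs, FDR 0.0839). With array 1 as the only pre-CD8 DC array the Lss difference was 1.45. Sc5d, a sterol desaturase, read 7.69 and 7.70 in pre-CD8 DCs, above all CDP arrays, which spanned 6.72 to 7.45. The difference from Zeb2hi CDPs (0.59 ± 0.22, FDR 0.0967) passed without Zeb2low array 1 (FDR 0.0211) and in a fit of those 2 groups alone (FDR 0.0426).

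Sqle, the squalene epoxidase that limits flux late in the pathway, was almost level across the groups (means of 6.33, 6.45 and 6.46 in the Zeb2hi, Zeb2low and pre-CD8 groups), and the 95% interval of its difference between Zeb2low and Zeb2hi CDPs ran from -0.26 to 0.51. Hsd17b7, a keto-sterol reductase, had means of 5.98, 5.98 and 6.07 in the same order. Cyp51, the lanosterol demethylase, read 7.10 on Zeb2low array 1 and between 6.12 and 6.68 on the other 7 arrays (0.37 ± 0.21 against Zeb2hi CDPs, FDR 0.254). Msmo1 and Nsdhl, which remove methyl groups from the sterol ring, were highest on pre-CD8 DC array 1 (6.42 and 7.42) and lowest on Zeb2low array 1 (5.16 and 6.36). Their differences between Zeb2low and Zeb2hi CDPs were -0.19 ± 0.22 (FDR 0.575) and -0.29 ± 0.21 (FDR 0.346).

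**Figure D2:**
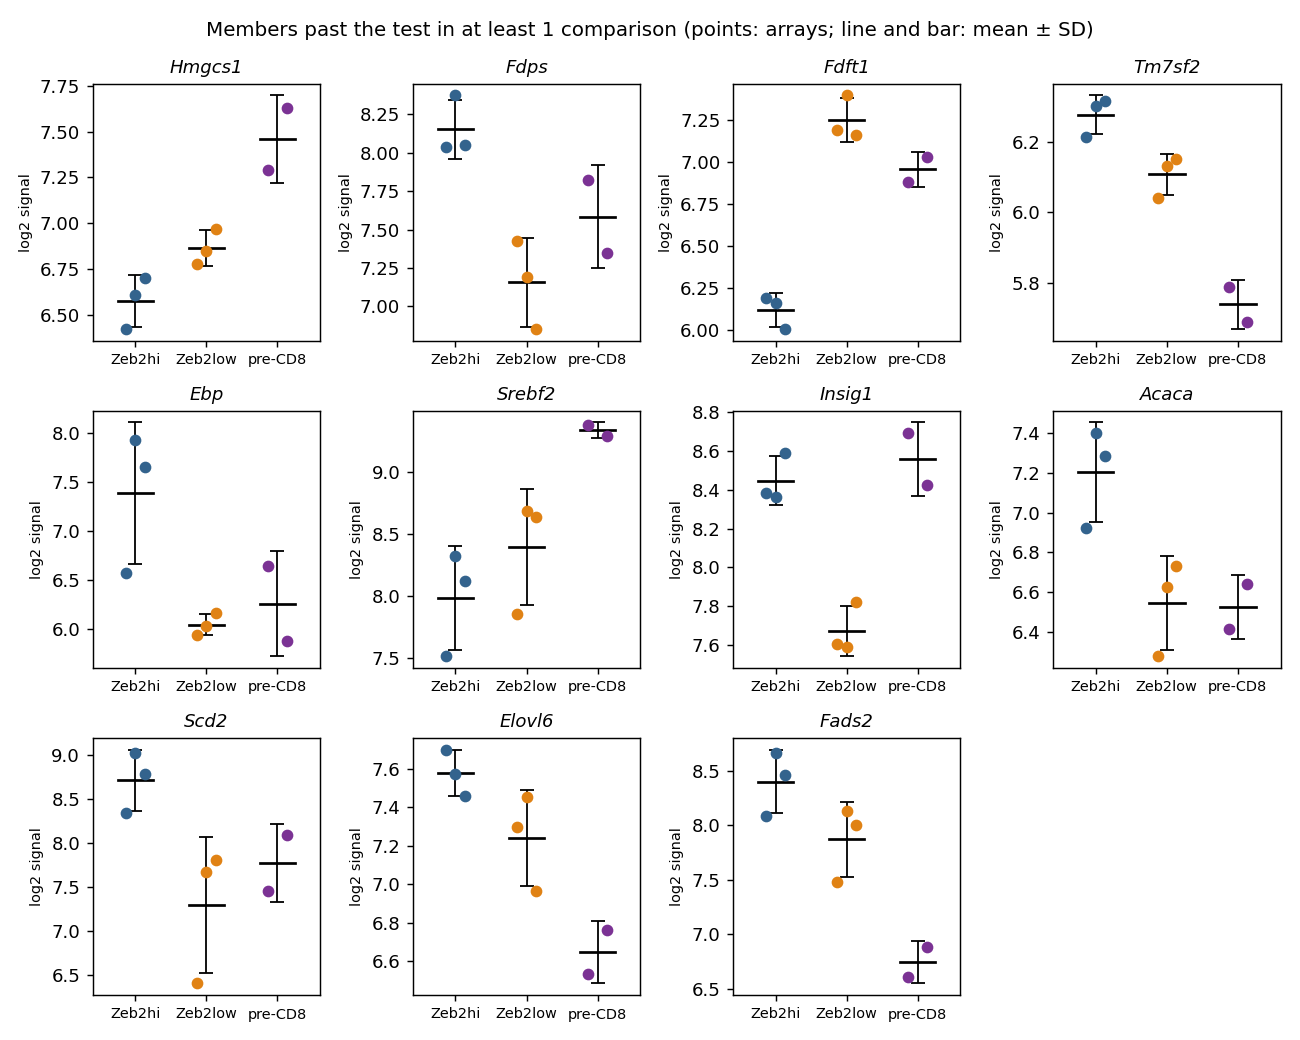
Log2 signal on each array (points) of the 11 members that passed the test in at least 1 comparison, with the group mean and SD (line and bar; 3 Zeb2hi CDP, 3 Zeb2low CDP and 2 pre-CD8 DC arrays; the vertical axes differ between panels and do not start at 0). Insig1 is low in Zeb2low CDPs alone, with 7.59 to 7.82 against 8.36 or more on all other arrays, and the Fdft1 panel shows the probe set with the higher signal.

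Among the regulators, the genes for the SREBP2 factor and for its retention protein had different patterns. Srebf2 encodes SREBP2, the factor that acts mainly on cholesterol genes. It read 7.52, 8.32 and 8.12 on the Zeb2hi arrays, 7.86, 8.68 and 8.64 on the Zeb2low arrays and 9.37 and 9.28 on the pre-CD8 DC arrays. Both pre-CD8 DC arrays were above every CDP array, while the CDP fractions overlapped. Srebf2 was 2.54-fold higher in pre-CD8 DCs than in Zeb2hi CDPs (1.34 ± 0.30, FDR 0.0182), a call that was lost without pre-CD8 DC array 1 (1.30, FDR 0.0840) or array 2 (1.39, FDR 0.0548). Against Zeb2low CDPs it did not pass (0.94 ± 0.30, FDR 0.243). Between the CDP fractions it did not pass either (0.41 ± 0.27, FDR 0.317), but did in the fit blocked on replicate number over the CDP arrays (FDR 0.0461), each Zeb2low array being above the Zeb2hi array of its number.

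Insig1 encodes the protein that keeps SCAP and SREBP in the endoplasmic reticulum and is itself an SREBP target gene. Its log2 signal was 8.38, 8.36 and 8.59 in Zeb2hi CDPs, 7.61, 7.59 and 7.82 in Zeb2low CDPs and 8.69 and 8.42 in pre-CD8 DCs. All Zeb2low arrays were below all arrays of the other groups, and those groups overlapped. Insig1 was 1.71-fold lower in Zeb2low than in Zeb2hi CDPs (-0.78 ± 0.15, FDR 0.0128), and that call was lost without Zeb2hi array 2 (FDR 0.0504) or 3 (FDR 0.0633). Between pre-CD8 DCs and Zeb2low CDPs the difference was 0.89 ± 0.17, a 1.85-fold higher mean that did not pass (FDR 0.0694). Pre-CD8 DCs and Zeb2hi CDPs differed by 0.11 ± 0.17, with a 95% interval from -0.26 to 0.49.

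The paralogs of these regulators passed in no comparison. Srebf1, which encodes the factor that acts mainly on fatty acid genes, had means of 6.69, 6.57 and 6.74 in the Zeb2hi, Zeb2low and pre-CD8 groups, and the 95% interval of its difference between pre-CD8 DCs and Zeb2hi CDPs ran from -0.49 to 0.59. Insig2, the INSIG form that does not depend on SREBP, had means of 5.68, 5.46 and 5.57, with a 95% interval from -0.79 to 0.35 between Zeb2low and Zeb2hi CDPs. Scap, the escort of SREBP, had means of 7.76, 7.58 and 7.60. Whether the differences of Srebf2 and Insig1 exceed those of their paralogs was not tested. Stard4, which carries cholesterol between membranes, read 5.999, 6.06 and 6.42 in Zeb2hi CDPs and 5.56 and 5.69 in pre-CD8 DCs, without overlap (-0.54 ± 0.20, FDR 0.107).

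The fatty acid genes that passed were all lower than in Zeb2hi CDPs, Acaca and Scd2 in Zeb2low CDPs and Elovl6 and Fads2 in pre-CD8 DCs. All 7 tested fatty acid genes had negative differences between pre-CD8 DCs and Zeb2hi CDPs, with a median of -0.68. Between Zeb2low and Zeb2hi CDPs 6 of 7 were negative, Fads1 being the exception, with a median of -0.34. Beside this, 6875 and 6389 of the 13356 genes tested had negative differences in these comparisons, with medians of -0.02 and 0.03. The 21 other genes of fatty acid synthesis and activation described below did not share this lean. Of them, 10 were negative and 11 positive in pre-CD8 DCs against Zeb2hi CDPs (median 0.10). Between Zeb2low and Zeb2hi CDPs 11 were negative and 10 positive (median -0.03). The 2 of 7 fatty acid genes called lower in each comparison (28.6%) stand beside 11.1% and 10.3% of all genes.

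Fads2 encodes the desaturase that starts the synthesis of long polyunsaturated fatty acids. It read 8.09, 8.66 and 8.46 on the Zeb2hi arrays, 7.48, 8.13 and 8.01 on the Zeb2low arrays and 6.61 and 6.88 on the pre-CD8 DC arrays. The pre-CD8 DC arrays were below all others, and Zeb2low array 2 overlapped the Zeb2hi range. Fads2 was 3.16-fold lower in pre-CD8 DCs than in Zeb2hi CDPs (-1.66 ± 0.25, FDR 0.00335), the largest difference of any member in this comparison, and passed in all 19 alternatives. It was -1.13 ± 0.25 against Zeb2low CDPs, a 2.18-fold lower mean that did not pass (FDR 0.100). Between the CDP fractions the difference was -0.53 ± 0.22 (FDR 0.133), and it passed in the fit blocked on replicate number over the CDP arrays (FDR 0.0190).

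Fads1, the desaturase that acts after Fads2, read 6.91, 7.45 and 7.20 in Zeb2hi CDPs, 7.23, 7.39 and 7.69 in Zeb2low CDPs and 5.94 and 7.18 in pre-CD8 DCs. The pre-CD8 DC arrays lay far apart, and the second was within the Zeb2hi range. The difference from Zeb2hi CDPs did not pass (-0.63 ± 0.34, FDR 0.243), and it was -1.25 with array 1 as the only pre-CD8 DC array.

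Elovl6 encodes the elongase that lengthens palmitate to stearate. It read 7.70, 7.57 and 7.46 on the Zeb2hi arrays, 7.30, 7.45 and 6.96 on the Zeb2low arrays and 6.53 and 6.76 on the pre-CD8 DC arrays. The groups did not overlap and ran downwards in that order, although Zeb2low array 2 was only just below Zeb2hi array 3. Elovl6 was 1.90-fold lower in pre-CD8 DCs than in Zeb2hi CDPs (-0.93 ± 0.19, FDR 0.0117), a call lost without pre-CD8 DC array 1 (-0.82, FDR 0.0691) and without that array and Zeb2low array 1 together (FDR 0.0578).

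Scd2 encodes a stearoyl-CoA desaturase, which makes monounsaturated fatty acids, and it was the paralog with signal in these cells, Scd1 being below the filter level. It read 8.34, 9.02 and 8.78 on the Zeb2hi arrays, 6.41, 7.68 and 7.81 on the Zeb2low arrays and 7.46 and 8.09 on the pre-CD8 DC arrays. Every other array was below the Zeb2hi arrays, and Zeb2low array 1 lay more than 1 log2 unit below the next lowest array. Scd2 was 2.67-fold lower in Zeb2low than in Zeb2hi CDPs (-1.42 ± 0.37, FDR 0.0359). That call was lost without Zeb2hi array 2 (FDR 0.133) or 3 (FDR 0.114), without Zeb2low array 2 (FDR 0.0527) and after quantile normalization (FDR 0.0600). The difference between pre-CD8 DCs and Zeb2hi CDPs did not pass (-0.94 ± 0.42, FDR 0.157), but did without Zeb2low array 1 (FDR 0.0356).

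Acaca encodes acetyl-CoA carboxylase, which commits acetyl-CoA to fatty acids. It read 6.92, 7.40 and 7.28 on the Zeb2hi arrays, 6.28, 6.63 and 6.73 on the Zeb2low arrays and 6.41 and 6.64 on the pre-CD8 DC arrays. The Zeb2hi arrays were above all others. Acaca was 1.58-fold lower in Zeb2low CDPs (-0.66 ± 0.18, FDR 0.0454), close to the threshold, and pre-CD8 DCs differed by a like amount that did not pass (-0.68 ± 0.21, FDR 0.0540) but did without Zeb2hi array 1 (FDR 0.0346) or Zeb2low array 1 (FDR 0.0364) and after centring (FDR 0.0484). The other Acaca probe set differed by -0.64 ± 0.25 in Zeb2low CDPs (FDR 0.118). The Zeb2low call held in 9 of 20 alternatives and was lost, among others, without Zeb2hi array 2 (FDR 0.169) or 3 (FDR 0.151) and without Zeb2low array 1 (FDR 0.105), 2 (FDR 0.0899) or 3 (FDR 0.0671).

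Fasn, the fatty acid synthase, and Acly, which supplies cytosolic acetyl-CoA to both routes, did not pass in any comparison. Fasn read 6.97, 7.80 and 7.94 in Zeb2hi CDPs, 7.05, 7.32 and 7.62 in Zeb2low CDPs and 7.22 and 7.43 in pre-CD8 DCs. Acly read 7.47, 8.26 and 8.12, then 7.21, 8.02 and 7.86, then 8.01 and 7.85. For both genes array 1 was the lowest of each CDP fraction. The 95% interval between Zeb2low and Zeb2hi CDPs ran from -0.84 to 0.36 for Fasn and from -0.85 to 0.35 for Acly.

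**Figure D3:**
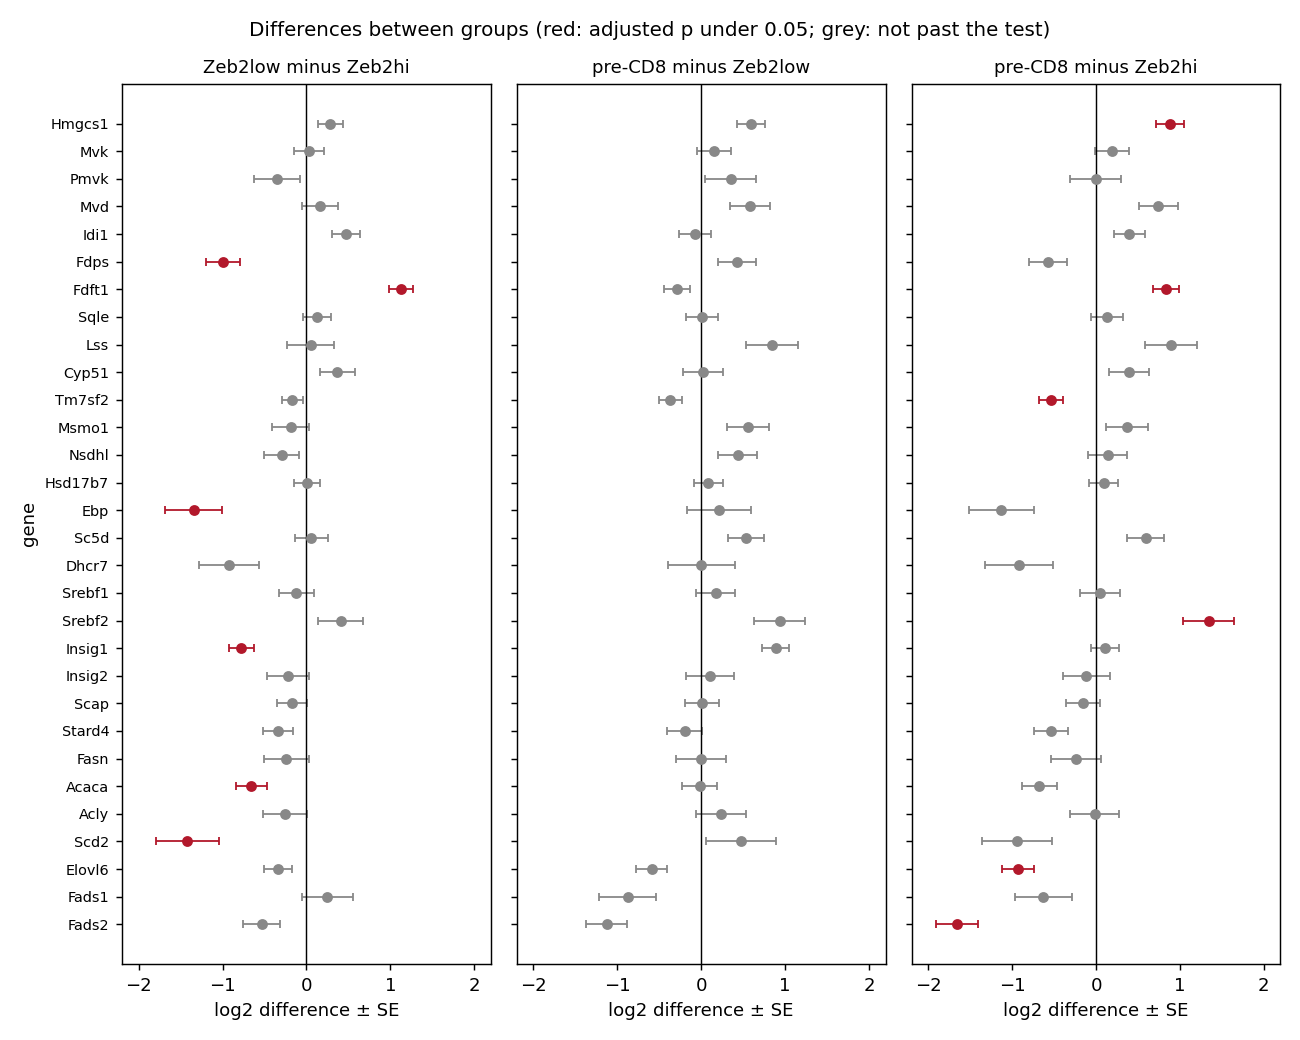
Log2 difference of each of the 30 members between 2 groups (points, with limma's standard error; red where the FDR is under 0.05), for Zeb2low minus Zeb2hi CDPs, pre-CD8 DCs minus Zeb2low CDPs and pre-CD8 DCs minus Zeb2hi CDPs. Red points number 6, 0 and 6, and Fads2 at -1.66 and Srebf2 at 1.34 are the ends of the third panel.

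Between pre-CD8 DCs and Zeb2low CDPs no member passed limma's test after adjustment, and 10 of 30 had an unadjusted p under 0.05, against 13.2% of all genes. Of these, Hmgcs1, Mvd, Lss, Sc5d, Srebf2 and Insig1 were higher and Tm7sf2, Elovl6, Fads1 and Fads2 lower in pre-CD8 DCs. Over all genes 7166 of 13356 had lower means in pre-CD8 DCs, and over all members the roles were mixed. Of the 7 fatty acid genes 5 had lower means in pre-CD8 DCs, while Scd2 (0.47) and Acly (0.24) had higher ones, and Idi1 (-0.07), Fdft1 (-0.29), Tm7sf2 (-0.37) and Stard4 (-0.20) were the members of the other roles with lower means. Arrays of the 2 groups did not overlap for any of the 10 members with an unadjusted p under 0.05. These members were picked by their p in the same comparison, so this adds no separate support. As no member passed the adjusted test, these values are a description of these 5 arrays. The smallest FDR was that of Insig1 (0.0694), followed by that of Fads2 (0.100).

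Other genes of lipid metabolism were read from 3 lists. Of 10 tested genes of the sterol and isoprenoid routes outside the members, 0 passed limma's test in any comparison, and 5, 1 and 1 had an unadjusted p under 0.05 in Zeb2low against Zeb2hi CDPs, pre-CD8 DCs against Zeb2low CDPs and pre-CD8 DCs against Zeb2hi CDPs. The shares of this list were 50%, 10% and 10%, beside 32.8%, 13.2% and 31.8% of all genes. All 10 had lower means in Zeb2low than in Zeb2hi CDPs, with a median of -0.55. Over all genes 6389 of 13356 had lower means, with a median of 0.03. Of 16 tested genes of sterol uptake, storage and efflux 0 passed either, with 2, 3 and 2 at an unadjusted p under 0.05 (12.5%, 18.8% and 12.5% of the list, beside 32.8%, 13.2% and 31.8% of all genes).

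Of 21 other genes of fatty acid synthesis and activation, 2 were higher and 3 lower in Zeb2low than in Zeb2hi CDPs (23.8%, beside 14.8% of all genes). Mecr, the reductase of mitochondrial fatty acid synthesis, was 2.75-fold lower in Zeb2low CDPs (-1.46 ± 0.18, FDR 0.00290) and 2.08-fold lower in pre-CD8 DCs (-1.05 ± 0.21, FDR 0.0103), and passed in all 8 fits without 1 array in both comparisons. Hacd2, a dehydratase of very long chain elongation, was higher in Zeb2low CDPs (0.96 ± 0.21, FDR 0.0191) and in pre-CD8 DCs (1.39 ± 0.23, FDR 0.00548). Degs1, the desaturase that makes ceramide, was higher in the same groups (0.71 ± 0.17, FDR 0.0265, and 1.01 ± 0.19, FDR 0.00833). Hsd17b12 (-0.78 ± 0.19, FDR 0.0272), an elongation reductase, and Acsl5 (-0.47 ± 0.13, FDR 0.0487), an acyl-CoA synthetase, were lower in Zeb2low CDPs.

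In pre-CD8 DCs against Zeb2hi CDPs 3 of these 21 genes were higher and 2 lower (23.8%, beside 17.6% of all genes). The ones not named above were Acss2 (0.91 ± 0.20, FDR 0.0162), which makes acetyl-CoA from acetate, and Hacd3 (-0.77 ± 0.20, FDR 0.0303), a paralog of Hacd2. No gene of this list passed between pre-CD8 DCs and Zeb2low CDPs. There 1 had an unadjusted p under 0.05 (4.76% of the list, beside 13.2% of all genes). The Zeb2low calls of Hacd2, Degs1, Hsd17b12 and Acsl5 were each lost without Zeb2hi array 2 (FDR 0.0778, 0.0914, 0.109 and 0.160) and without Zeb2hi array 3 (FDR 0.0814, 0.102, 0.0706 and 0.148), passing in 4, 3, 3 and 2 of 8 fits without 1 array. The pre-CD8 DC calls of Acss2 and Hacd3 passed in 5 and 3 of 8 such fits, and that of Degs1 was lost without pre-CD8 DC array 1 (FDR 0.0556). With the Hacd2 probe set of lower signal neither Hacd2 call held (FDR 0.117 and 0.130).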

How the data were processed

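The authors deposited 1 linear intensity for each probe set and array. RMA and Affymetrix Expression Console are named, without versions, per the submitters' processing notes. The table holds 28853 probe sets on 8 arrays. RMA gives no detection call, so a low signal is not proof of expression. Here log2 was taken first. Probe sets with 1 annotated gene (21789) were kept where at least 2 arrays exceeded their own 40th percentile, and the probe set with the highest mean stood for a gene.

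All 8 arrays entered 1 limma 3.58.1 fit (lmFit, eBayes, two-sided, R 4.3.3; 5 residual degrees of freedom), with Benjamini-Hochberg adjustment over 13356 genes in each comparison. Values after ± with a difference are limma's standard errors. The number of arrays limits the precision. Recovery was tried in 1 simulation per comparison, with independent noise. Far fewer genes were changed in it than were called here against Zeb2hi CDPs (14.8% and 17.6%). The counts that follow may therefore not hold for these data, and they do not rank the comparisons. On simulated data of 13356 genes with 100 genes changed by 1 and 100 by 2 on the log2 scale, 57 and 88 were recovered for Zeb2low against Zeb2hi CDPs with 3 false calls, 47 and 77 for pre-CD8 DCs against Zeb2low CDPs with 4, and 41 and 90 for pre-CD8 DCs against Zeb2hi CDPs with 5.

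The members, lists and alternatives were chosen with earlier results of these data known. All members are named, and of the other lipid lists the genes past the test. Zeb2hi and Zeb2low arrays of the same replicate number showed like deviations from the mean of their group (r = 0.478, 0.407 and 0.308, across genes, which are not independent), and were therefore treated as pairs in the blocked alternative. No label states such a pairing. The numbers of the pre-CD8 DC arrays did not pair (r between -0.587 and -0.172). Promoters were matched by symbol and gene identifier. Alternatives changed the filter, probe set rule, normalization, array weights, variance model, block and the arrays included.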

Additional observations from a re-analysis of the deposited data

How the results depend on the processing

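A total of 20 alternatives were run, of which the probe set with the lowest mean per gene was added after the 2 Fdft1 probe sets were seen to disagree. Of the 234 alternative values of the 12 member calls, 190 kept direction and side of the threshold, 43 lost the call, and 1 turned: Fdft1 between Zeb2low and Zeb2hi CDPs, at -0.37 (adjusted p = 0.256) on the probe set of lower signal. With 1 array left out, 1 to 7 members were called between Zeb2low and Zeb2hi CDPs and 3 to 9 between pre-CD8 DCs and Zeb2hi CDPs; a lone pre-CD8 DC array was assumed to vary like the other groups. Without Zeb2hi array 2 or 3 only Fdft1 was called between the CDP fractions, while the share of all genes called was 3.9% and 4.3%. Without Zeb2low array 2 or 3 the count was 3 (7.89% and 7.55% of all genes), and without pre-CD8 DC array 1 the count against Zeb2hi CDPs was 3 (9.68% of all genes). Blocking on replicate number among the 6 CDP arrays, 10 members passed, with 30.5% of all genes passing, and the 6 members were among them; the block over all arrays called 5 and 5 (11.6% and 11.9% of all genes) and lost Ebp and Tm7sf2. Between pre-CD8 DCs and Zeb2low CDPs 0 members passed in any alternative. Of the 30 tested members, Lss alone was not above the filter level on all 8 arrays.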

Other observations

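Arrays with the number 1 tended to be the lowest of their CDP fraction for these genes. Zeb2hi array 1 was the lowest Zeb2hi array for 20 of 30 members, with a median deviation from the group mean of -0.15 on the log2 scale, against 0.00 over all genes. Zeb2low array 1 was the lowest Zeb2low array for 18 of 30 members, with a median deviation of -0.11 against -0.01 over all genes. Pre-CD8 DC array 1 was the lower pre-CD8 DC array for 15 of 30 members. In the order of the group means, 9 members ran upwards from Zeb2hi through Zeb2low CDPs to pre-CD8 DCs, among them 3 mevalonate and 5 squalene and sterol enzymes, and 6 ran the opposite way, among them 4 fatty acid genes. These orders carry no test, and they were not counted over all genes.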
